A study of Mus musculus with 64 samples.

Results

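The genes described here encode 10 plasma proteins of the liver: Alb, Ttr, Ahsg, Pzp, Fga, Fgb, Fgg, Serpinc1, F2 and Plg. They are 10 of the 19521 genes in the table, and they were chosen by their measured levels across the tissues, very high in liver and low but rarely 0 in white adipose tissue (WAT), heart and skeletal muscle. The difference between liver and the other tissues is therefore a description, and no test of it is given. The question the genes address is how much liver RNA, or RNA of the same genes from another source, each library of the other tissues held.

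The study sequenced RNA of liver, WAT, heart and muscle from 16 male mice, which gave 64 libraries in 16 groups of 4. The strain is labelled C57BL/6, and C57BL/6J for the wild type. The 8 wild-type mice (CTRL) and the 8 mice labelled Pklr-/- (called labelled KO below) were kept on chow or given a high-sucrose diet (HSD) from an age of 8 weeks, for 8 weeks, 4 mice to a diet, and were killed at 16 weeks. The labels do not say which part of Pklr was deleted, which fat depot the WAT was or which libraries of different tissues share a mouse, though the title numbers run over the same 16 in each tissue.

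Pklr, the gene of the liver and red-cell pyruvate kinase, was not lower in the labelled-KO livers. Its liver level was 61.6 to 141 TPM in CTRL chow, 154 to 263 in CTRL HSD, 147 to 268 in labelled-KO chow and 314 to 459 in labelled-KO HSD. The genotype below is therefore that of the labels, which these levels do not check. Total estimated counts ran from 5724366 to 12188623 per library, so that 3 counts were worth 0.246 to 0.524 CPM, the count scaled to library size. No 2 replicate libraries held identical values. Marker genes of each tissue's own cells were high where the labels put them. In the livers, cardiomyocyte genes had a median of 0.0326% of their summed heart level, and skeletal muscle fibre genes 0.0232% of their muscle level. Between heart and muscle these lists were less confined. Cardiomyocyte genes in the muscle libraries were at 32.45 to 47.08% of their heart level. Skeletal muscle fibre genes in the hearts had a median of 1.11% of their muscle level. Adipocyte genes had medians of 1.79% of their WAT level in liver (0.544 to 5.81%), 3.58% in muscle and 0.0496% in heart.

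Plasma proteins are made mainly by hepatocytes, which secrete them into the blood, and their mRNAs are among the most abundant in the liver. The proteins reach every tissue with the blood, but their mRNAs do not, so a transcript of such a gene in another tissue can be local or can be liver RNA carried over. Hepatocyte nuclear factors and C/EBP proteins keep these genes on, and during inflammation interleukin signals acting through STAT3 raise the fibrinogen genes while albumin and transthyretin fall.

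The promoter stretches of 3 members are shown because the liver results turn on albumin moving one way and fibrinogen the other in one library. Each is the 150 bases before the RefSeq start of the gene in GRCm38.p6, 5′ to 3′ on the gene's strand. Capitals mark matches, on either strand, to an HNF1 half-site (GTTAAT), a C/EBP core (TTGCNNAA) or a STAT3-type acute phase element (CTGGGAA). The stretches lie at chr5:90460720-90460869 on the plus strand, chr3:83049864-83050013 on the minus strand and chr3:83007574-83007723 on the plus strand.
Alb: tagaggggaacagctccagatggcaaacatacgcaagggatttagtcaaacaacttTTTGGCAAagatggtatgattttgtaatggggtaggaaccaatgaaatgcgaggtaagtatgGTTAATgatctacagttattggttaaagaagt
Fgb: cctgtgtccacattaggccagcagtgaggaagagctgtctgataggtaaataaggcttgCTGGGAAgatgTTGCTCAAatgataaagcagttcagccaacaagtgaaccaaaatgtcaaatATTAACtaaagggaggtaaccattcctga
Fgg: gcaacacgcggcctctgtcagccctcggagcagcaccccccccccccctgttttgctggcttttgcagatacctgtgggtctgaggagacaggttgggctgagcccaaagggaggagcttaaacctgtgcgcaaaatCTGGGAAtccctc
The Alb stretch held an HNF1 half-site and a C/EBP core, Fgb held those and a STAT3-type element, and Fgg held the STAT3-type element only. In windows from 250 bases before to 50 after the start, 8 members had a RefSeq promoter. The HNF1 half-site was in 5 of the 8, against 7.10% of 32851 promoters of the same length, and the C/EBP core was in 5 of the 8, against 10.8%. The STAT3-type element was in 2 of the 8, Fgb and Fgg, against 11.1%. Neither the HNF4 core CAAAGTCCA, in 0.475% of promoters, nor TATAAA, in 13.6%, was found in the 8 windows. These are matches of letters, not measured binding.

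In liver the members were set apart from one another by level. Alb, the main osmotic and carrier protein of plasma, had a median of 54671 TPM over the 16 livers (11570 to 67026). Ttr, which carries thyroid hormone and retinol-binding protein, had a median of 6085 TPM (2800 to 7607), and Ahsg, the mineral-binding fetuin-A, 5780 TPM (4221 to 6483). Those 3 were the most abundant, and the ranges of Ttr and Ahsg overlapped nearly throughout.

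The fibrinogen chains followed. Fgg had a median of 3313 TPM (2494 to 6685), Fga 2850 (1945 to 6962) and Fgb 1545 (1186 to 3199). The 3 genes lie side by side on chromosome 3 within 42.1 kb, Fga at chr3:83026076-83033627, Fgb at chr3:83040141-83049863 and Fgg at chr3:83007724-83015049 in GRCm38, and their products are assembled into the precursor of fibrin.

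The inhibitors and proteases were lower. Serpinc1 (antithrombin) had a median of 1386 TPM (1182 to 1643) and Pzp, a protease inhibitor of the alpha-macroglobulin family, 1329 (1103 to 2049). Plg, the precursor of the clot-dissolving enzyme plasmin, had a median of 937 TPM (817 to 1479), and F2, the precursor of thrombin, 843 (634 to 1070). Neighbours in this order from Fgb down to F2 overlapped in range. The 10 members together took 7.31 to 14.4% of all estimated counts of a liver library, and Alb made up 27.1 to 73.1% of their summed TPM.

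**Figure D1:**
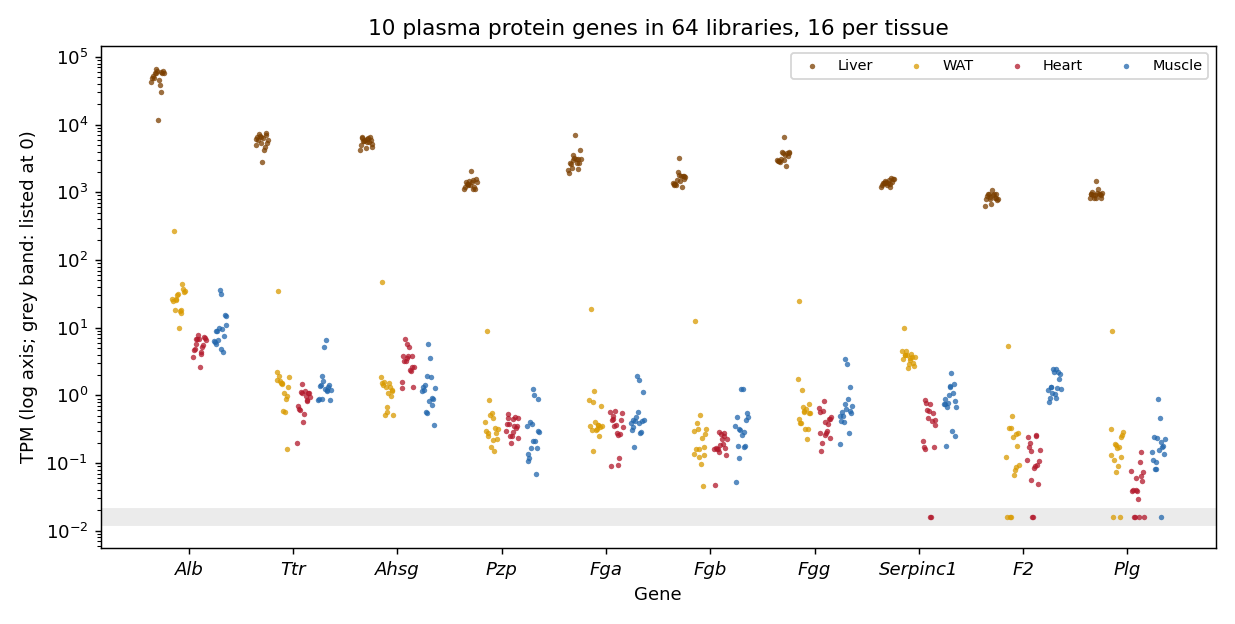
Levels of the 10 plasma protein genes in TPM (log axis) in each of the 64 libraries, by tissue; each point is a library, and points in the grey band are libraries in which the gene was listed at 0. In every gene the 16 livers lie far above the other tissues, and the highest WAT point of each gene, such as Alb at 272 TPM, is the same library, labelled-KO chow replicate 3.

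Outside the liver every member was present in trace amounts. The median Alb level was 26.8 TPM in WAT, 8.95 in muscle and 5.65 in heart, which is 0.0536%, 0.0179% and 0.0113% of the mean of the 16 livers. Ttr had medians of 1.5, 1.28 and 0.896 TPM in WAT, muscle and heart, and Ahsg 1.27, 1.19 and 3.20. The fibrinogen chains, Pzp and Plg had medians of at most 0.572 TPM (Fgg in muscle) in all 3 tissues. F2 had a median of 0.151 TPM in WAT and 0.108 in heart but 1.30 in muscle, and Serpinc1 had 3.67 TPM in WAT but 0.429 in heart and 0.798 in muscle. Values listed at 0 were found for Serpinc1 in 2 hearts, for F2 in 3 WAT and 2 heart libraries, and for Plg in 2 WAT, 4 heart and 1 muscle libraries.

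A library's share of liver is its summed member TPM as a percentage of the mean sum of the 16 livers. In WAT this share ran from 0.0221 to 0.597%, with a median of 0.0502%. In muscle it ran from 0.0130 to 0.0794%, with a median of 0.0202%, and in heart from 0.00967 to 0.0231%, with a median of 0.0156%. Because Alb is most of the sum, the median over the 10 members' own shares was also taken, and it was more alike between the tissues: 0.0213% in WAT, 0.0194% in muscle and 0.0134% in heart, as medians over the libraries.

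Single members departed from that common level. In WAT, Alb (0.0536%) and Serpinc1 (0.261%) were above the median member. In heart Ahsg was highest, at 0.0569% of liver, with Serpinc1 at 0.0305% and Pzp at 0.0256%. In muscle F2 was highest, at 0.152%, with Serpinc1 next at 0.0568%. The Ahsg level in heart was 3.82, 5.18, 2.40 and 2.31 TPM in CTRL chow, 2.60, 3.78, 1.33 and 2.63 in CTRL HSD, 1.29, 1.59, 3.79 and 3.20 in labelled-KO chow and 6.85, 3.20, 5.80 and 3.53 in labelled-KO HSD. The 4 groups overlapped. All 16 hearts were above the median share of the members in heart for this gene.

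The F2 level in muscle was 1.07, 2.42, 0.915 and 1.28 TPM in CTRL chow and 2.24, 1.77, 2.05 and 1.24 in CTRL HSD. It was 1.21, 0.810, 0.923 and 1.31 TPM in labelled-KO chow and 1.35, 1.08, 2.43 and 2.21 in labelled-KO HSD. Every muscle library thus held F2, and the 2 muscle libraries that were high for the other members were within the range of the rest for F2.

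Serpinc1 in WAT was 2.57 to 4.52 TPM in 15 libraries and 10.01 in the last. Exons of Serpinc1 (chr1:160978585-161005863, plus strand) overlap those of Zbtb37 on the opposite strand, a zinc finger gene that had 0.783 to 3.15 TPM in WAT. The labels do not say whether strand was used in counting. The estimated count of Serpinc1 was not whole, within 0.01, in 60 of 64 libraries, against 33 for Ahsg, 31 for Pzp, 21 for Plg, 20 for F2, 13 for Fga, 12 for Fgg, 2 for Alb and 0 for Ttr and Fgb. Estimated counts are not whole where reads match more than 1 gene. How many of the Serpinc1 reads in WAT came from Zbtb37 was not tested. Plg overlaps Slc22a3 in the same way, a transporter gene with 27.5 to 51.03 TPM in WAT, and Pzp has near relatives in Mug1 and Mug2, so their low levels carry the same limit. Ahsg shares exon sequence with the antisense gene Gm30505, and F2, with none annotated, also has counts that are not whole, so the limit holds for Ahsg in heart and F2 in muscle too.

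**Figure D2:**
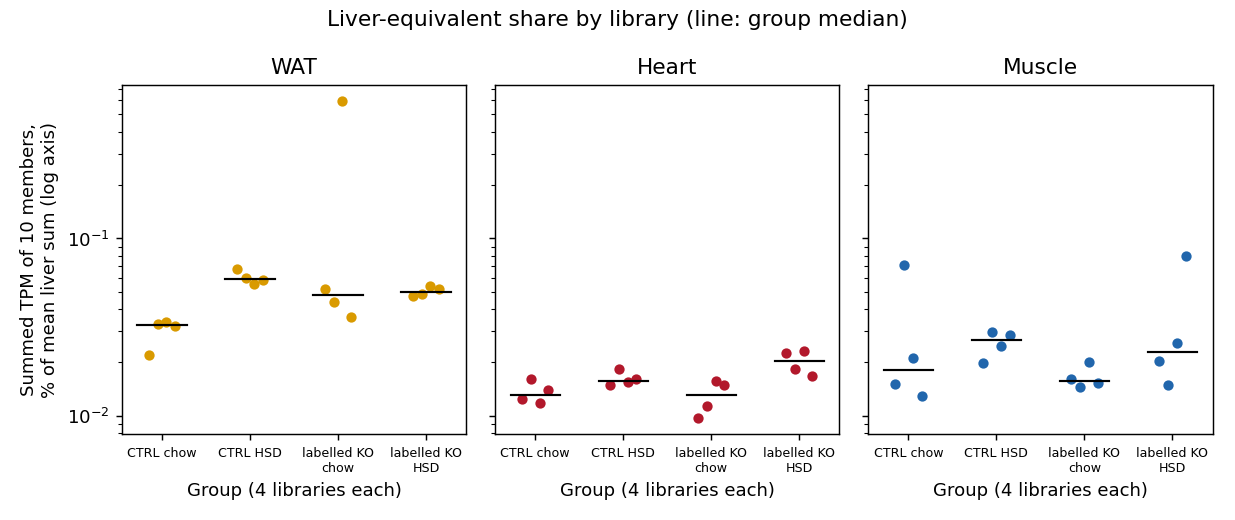
Summed level of the 10 genes in each WAT, heart and muscle library as a percentage of the mean liver sum (log axis), by genotype label and diet; each point is a library. A single WAT library at 0.597% and a pair of muscle libraries near 0.08% stand above the rest of their tissue.

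A single WAT library stood apart. In WAT of labelled-KO chow mice, Alb was 26.6, 24.5, 272 and 18 TPM in the 4 libraries. Ttr was 2.22, 1.71, 35.1 and 1.96 TPM in the same 4 libraries, and Ahsg 1.87, 1.54, 47 and 1.44. In replicate 3 all 10 members were above every other WAT library, by 2.73-fold (Serpinc1) to 73.0-fold (Fgb) over the median of the other 15.

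The 10 shares in that library were close to one another. They ran from 0.544% of liver (Alb) to 0.922% (Plg), a 1.70-fold range, while the members' medians over WAT as a whole ran from 0.0115% (Fga) to 0.261% (Serpinc1). Genes that were not members moved with them. Among 156 other liver-only genes, defined as at least 100 TPM in liver and at most 0.1% of that in the median WAT library, the median share was 0.734% in replicate 3 and 0.00929 to 0.0239% in the other 15. Of 24 genes of hepatocyte enzymes and transporters, which are not secreted, 18 were above all other WAT libraries, with a median share of 0.731%. So were 15 of 21 other coagulation genes and 22 of 26 other plasma protein genes. How many of all genes were highest in this library was not counted, so these counts have no background share beside them.

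Markers of other cells were summed in the same library. The summed adipocyte marker level was 44388 TPM, within the 34652 to 55025 of the others. Erythroid genes were lower, at 1615 TPM against 2187 to 8379, and genes of Kupffer cells, the liver's macrophages, were at 29.8 TPM against 35.6 to 109. Platelet genes summed to 99.96 TPM, within the 32.4 to 144 of the others. The part of these cells was not tested, and the source of the liver transcripts was not tested either.

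The mixture of liver transcripts in that WAT library was compared with each of the 16 livers over 149 liver-only genes. It lay closest to the liver of CTRL chow replicate 3, with r = 0.719 across genes and an SD of 0.415 for the log2 ratio. The next liver was CTRL chow replicate 4, with an SD of 0.716. The liver of the same group and number, labelled-KO chow replicate 3, ranked 10 of 16, with an SD of 1.105 and r = 0.0062. Without the acute phase genes the closest liver was again CTRL chow replicate 3, with an SD of 0.415. The 10 members were at 0.576 to 0.841% of that liver, a 1.46-fold range, the narrowest for any of the 16. Genes are not independent replicates, and no test is attached to this order.

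A pair of muscle libraries was also high, by less. Muscle Alb was 4.91, 31.1, 9.69 and 4.37 TPM in CTRL chow and 7.49, 15.2, 11.2 and 14.8 in CTRL HSD. It was 6.33, 6.25, 8.85 and 5.80 TPM in labelled-KO chow and 9.06, 6.59, 9.96 and 35.7 in labelled-KO HSD. In CTRL chow replicate 2, 9 of 10 members were above all of the 14 ordinary muscles, and those 9 were 2.81-fold (Serpinc1) to 5.29-fold (Ttr) over their median. F2, the other member, was at 1.92-fold.

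In labelled-KO HSD replicate 4, 8 of 10 members were above all of those 14, and those 8 were 4.19-fold (Fgb) to 6.25-fold (Fgg) over the median. Serpinc1 and F2, within the range of the 14, were at 1.77-fold and 1.75-fold. Their median shares of liver over the 10 members were 0.0753% and 0.0910%. Of the 24 unsecreted hepatocyte genes, 17 and 19 were above all of the other 14 muscles, and of 26 other plasma protein genes 16 and 17. Of 21 other coagulation genes 5 and 8 were, with sums of 22.02 and 20.52 TPM against up to 21.9 in the rest, and of 13 liver transcription factors 2 and 2. The share of all genes above the 14 was not counted here either. The closest liver to CTRL chow replicate 2 was the liver of the same group and number (SD 0.868, r = 0.381 over 176 genes), though labelled-KO chow replicate 4 was near it (SD 0.891). That same liver, labelled-KO chow replicate 4, was closest to the muscle of labelled-KO HSD replicate 4 (SD 1.09, r = 0.286 over 178 genes). Without the acute phase genes the liver of CTRL chow replicate 2 was closest to both muscles. The SD was 0.783 (r = 0.237) for muscle CTRL chow replicate 2. For muscle labelled-KO HSD replicate 4 it was 1.021 (r = 0.0718), with liver labelled-KO chow replicate 4 at 1.026. The pair thus gives no clear order.

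**Figure D3:**
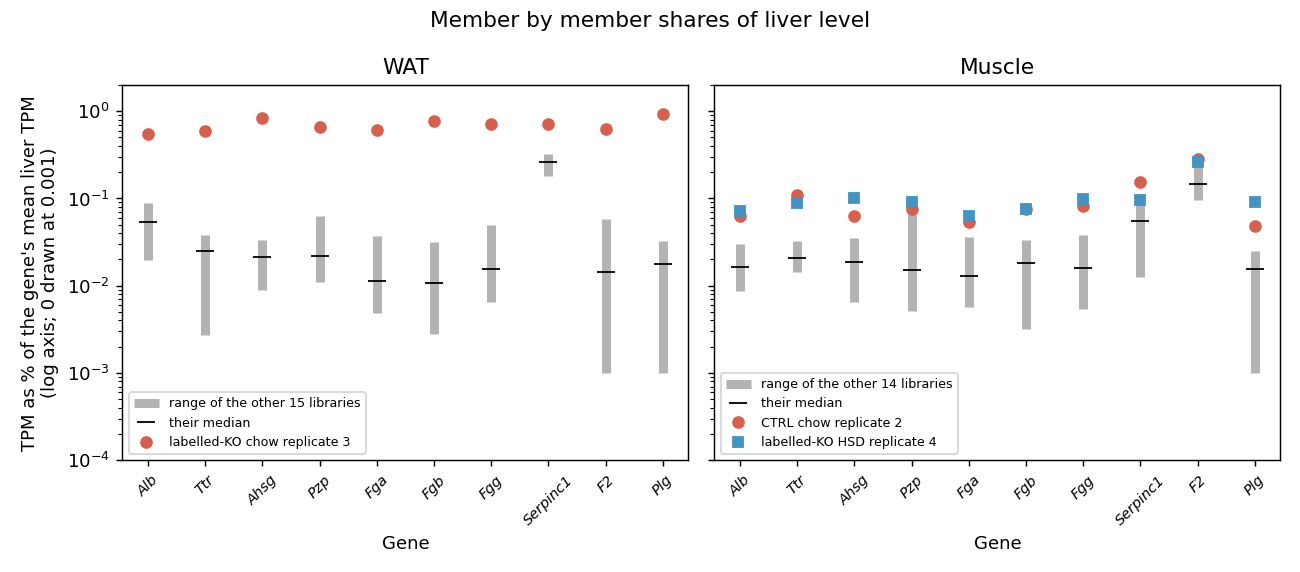
Share of the mean liver level (percent, log axis) of each of the 10 genes in the WAT and muscle libraries that stood apart. Grey bars give the range of the other libraries of the tissue and black dashes their median. A value of 0 is drawn at 0.001%. In the WAT library the 10 shares lie between 0.544 and 0.922%, whereas in the muscle libraries F2 lies above the other members at 0.284 and 0.259%.

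Across all 16 muscles the Alb level rose and fell with the summed level of the 24 unsecreted hepatocyte genes. On log2(CPM + 0.1), Pearson's r was 0.647 (permutation p = 0.00535, adjusted over 4 relations 0.0214) and Spearman's rho was 0.676 (permutation p = 0.00485, adjusted 0.0194). Without the pair of high muscle libraries, r was 0.442 (permutation p = 0.114) and rho 0.525 (permutation p = 0.0565), so the relation rests in part on them. The sum rests largely on 1 gene, Cyp2e1, an oxidising enzyme that fat also holds. In muscle Cyp2e1 had a median of 18.97 TPM (12.94 to 35.8), and the list's sum a median of 30.86 TPM (18.29 to 61.78). The relation was not tested without Cyp2e1. With the median of the list's shares of liver in place of its sum, r was 0.903 and rho 0.853. Within groups of 4, r was 0.763 in CTRL chow, 0.487 in CTRL HSD, 0.303 in labelled-KO chow and 0.894 in labelled-KO HSD.

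In heart r was 0.429 (permutation p = 0.0990) and rho 0.432 (permutation p = 0.0963), with r from -0.29 to 0.23 within groups. In WAT r was -0.03 (permutation p = 0.932) and rho 0.118 (permutation p = 0.663), and without the 2 libraries farthest from the median, labelled-KO chow replicate 3 among them, r was 0.323 (permutation p = 0.255). Within groups of WAT r ran from -0.53 in labelled-KO HSD to 0.999 in labelled-KO chow, where replicate 3 sets it. With the median of the list's shares in place of its sum, r in WAT was 0.833 (permutation, adjusted p = 0.0448) and rho 0.135 (adjusted p = 0.688), and in heart they were -0.06 and -0.11. In WAT the summed list is also led by Cyp2e1, which fat holds at a median of 3593 TPM, against 3676 in liver.

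Among genes with at least 10 TPM in liver, the 5 whose levels followed Alb most closely over the 48 libraries outside the liver were Scd1 (rho = 0.824), Hpd (0.819), Acaca (0.805), Adh1 (0.803) and Net1 (0.795). Scd1 desaturates fatty acids, Acaca starts their synthesis, and Hpd and Adh1 break down tyrosine and alcohol. The points share their tissue and library, and Scd1 was far higher in WAT, at a median of 14760 TPM, than in liver at 4717.

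The comparisons between groups follow, fitted with edgeR's quasi-likelihood test within each tissue over all genes, with a Benjamini-Hochberg adjusted p under 0.05 as the call. Counts of members with an unadjusted p under 0.05 are also given. That threshold is looser, so those counts cannot be set against the shares of all genes called. In WAT, 5 members had enough counts to test: Alb, Ttr, Ahsg, Pzp and Serpinc1. Between labelled-KO and CTRL WAT on chow 4 of the 5 were called, all higher in labelled KO, where 6.68% of all genes were called. The log2 differences were 2.45 ± 0.68 for Alb (SE, adjusted p = 0.0447), 3.67 ± 0.91 for Ttr (adjusted p = 0.0257), 3.49 ± 0.995 for Ahsg (adjusted p = 0.0487) and 3.67 ± 1.01 for Pzp (adjusted p = 0.0415). Serpinc1 had 0.54 ± 0.21 (adjusted p = 0.133). The median over the 5 was 3.49, against 0.02 over all genes.

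These calls rest on replicate 3. Without it Alb alone was called, at 0.66 ± 0.19 (adjusted p = 0.0482), while Ttr was at 1.39 (adjusted p = 0.114), Ahsg at 0.51 (adjusted p = 0.534) and Pzp at 0.74 (adjusted p = 0.378). The liver-only genes behaved in the same way. Of the 156, 20 could be tested, of which 4 were called higher in labelled KO on chow and 6 lower in labelled-KO HSD than labelled-KO chow. That is 20% and 30% of those tested, against 6.68% and 6.38% of all genes tested. Without replicate 3, 21 could be tested and none was called in either comparison. The comparison as a whole did not lose calls, with 1031 genes called without the library against 885 with it.

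WAT Alb differed by diet in the CTRL mice. It was 9.99, 17.5, 18.1 and 16.6 TPM on chow and 44.1, 37.5, 33.8 and 35.2 on HSD, with no overlap. The mean was 15.6 ± 3.77 TPM (SD, n = 4) on chow and 37.6 ± 4.55 on HSD. In the fit of all 16 WAT libraries the log2 difference was 1.44 ± 0.67 and was not called (adjusted p = 0.213). None of the 5 members was called there, 1 had an unadjusted p under 0.05, and limma called none; 4.77% of all genes were called. In WAT DESeq2 gave a test for 2 of the 10 members, Alb not among them, and called neither here.

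Labelled-KO chow replicate 3, which is in neither group, widens the spread of that fit. Without it Alb rose by 1.47 ± 0.18 (adjusted p = 0.0013), and with only the 8 libraries compared its adjusted p was 0.00394. No other member was called in either. Of 26 other plasma protein genes, 12 were tested in this comparison and 3 rose with HSD, where 4.77% of all genes were called. They were Rbp4, the retinol carrier, by 0.91 (adjusted p = 0.00852), Trf, the iron carrier transferrin, by 0.70 (adjusted p = 0.0259), and Cp, the copper oxidase ceruloplasmin, by 0.72 (adjusted p = 0.0455). Rbp4 and Trf were not at trace level in WAT. Their medians without the high library were 1193 and 3216 TPM, against liver means of 3076 and 7719. The same 3 were called without the high library.

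In labelled-KO WAT, Alb was 27, 26.1, 30.2 and 31.9 TPM on HSD, against the chow values above. None of the 5 members was called between the diets, with 3 at an unadjusted p under 0.05 and 6.38% of all genes called. DESeq2 called 1 member, Fgg, lower on HSD, and limma none. Ahsg had -3.45 ± 1.01 (adjusted p = 0.0541) and Pzp -2.30 ± 0.92 (adjusted p = 0.145). Without replicate 3 Pzp turned to 0.66 (adjusted p = 0.428). Between the genotypes on HSD none of the 5 was called, 0 had an unadjusted p under 0.05, and 0.106% of genes were called. For the interaction of genotype and diet none of the 5 was called although 4 had an unadjusted p under 0.05, and 0.573% of genes were called. Limma called no member in either comparison, nor did DESeq2 among the fewer members it tested in WAT.

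Heart Alb was low but ordered by diet. It was 2.67, 4.43, 4.15 and 5.15 TPM in CTRL chow and 5.63, 7.33, 6.99 and 6.54 in CTRL HSD. It was 3.64, 4.64, 4.81 and 5.67 TPM in labelled-KO chow and 6.83, 6.85, 7.86 and 6.88 in labelled-KO HSD. In each genotype all 4 HSD hearts were above all 4 chow hearts, although the lowest CTRL HSD heart was below the highest labelled-KO chow heart.

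The log2 difference was 0.83 ± 0.16 in CTRL (adjusted p = 0.125) and 0.77 ± 0.16 in labelled KO (adjusted p = 0.0668) with edgeR, so neither was called. DESeq2 called both, with adjusted p of 0.00233 and 0.00418. Of the 5 members tested in heart edgeR called none in any comparison. The members with an unadjusted p under 0.05 numbered 2 for diet in CTRL, 4 for diet in labelled KO, and 1 each for genotype on chow, genotype on HSD and the interaction. The shares of all genes called, at the stricter adjusted p, were 0.0247%, 0.14%, 0%, 0.0412% and 0.00824% in the same order. Limma called no member, and DESeq2 none but Alb.

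In the same direction, liver Alb was higher on HSD in both genotypes, as given next, but hearts and livers were not compared mouse by mouse. Whether the heart difference follows liver RNA or local expression was not tested.

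In muscle 9 members could be tested, all but Plg. EdgeR called none of the 9 in any comparison, and neither did DESeq2 or limma. Those with an unadjusted p under 0.05 numbered 0 for diet in CTRL, 2 for diet in labelled KO, 1 for genotype on chow, 0 for genotype on HSD and 2 for the interaction. The shares of all genes called, at the stricter adjusted p, were 0.091%, 0.00827%, 0%, 0% and 0%. All 9 fitted values were above 0 for diet in labelled KO, with a median of 1.08 on the log2 scale, and all 9 were below 0 for genotype on chow, with a median of -0.93. The medians over all genes were 0.01 in both. Without the pair of high libraries Alb had 0.31 ± 0.29 for diet in labelled KO (adjusted p = 0.892), against 1.17 ± 0.64 with them, and 0.03 ± 0.31 for genotype on chow (adjusted p = 0.974), against -0.92 ± 0.64.

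In liver the members' differences between groups were small beside those levels, with CTRL chow the exception. Alb was 11570, 46242, 38170 and 30176 TPM in CTRL chow and 60247, 57551, 61078 and 57246 in CTRL HSD. It was 42262, 48460, 52096 and 48879 TPM in labelled-KO chow and 58163, 58832, 67026 and 62007 in labelled-KO HSD. All 8 HSD livers were above all 8 chow livers. The CTRL chow livers were widely spread, at 31539 ± 14841 TPM (SD, n = 4), against 59030 ± 1919 in CTRL HSD, 47924 ± 4109 in labelled-KO chow and 61507 ± 4043 in labelled-KO HSD.

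The log2 difference of Alb between diets in CTRL was 0.79 ± 0.26 (adjusted p = 0.0943), short of the call. None of the 10 members was called, where 4.67% of all genes were, and 5 had an unadjusted p under 0.05: Alb, Ttr, Pzp, F2 and Plg. DESeq2 called Alb (0.80, adjusted p = 0.0318) and Plg (-0.39, adjusted p = 0.0159), and limma called Alb (adjusted p = 0.0416). Ttr had 0.41 ± 0.19 (adjusted p = 0.227) and Plg -0.40 ± 0.13 (adjusted p = 0.0776). The median over the 10 was -0.24, against -0.02 over all genes.

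Much of the spread came from CTRL chow replicate 1, in which the acute phase genes were high. Saa1, a serum amyloid that the liver makes in inflammation, was at 45057 TPM in that liver. The next were 4974 in CTRL chow replicate 3, 1534 in CTRL HSD replicate 4 and 675 in CTRL chow replicate 4, and the other 12 livers had 40.4 to 85.1.

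The fibrinogen chains were highest in that same liver. The CTRL chow livers had 6962, 3143, 2685 and 2183 TPM of Fga, replicate 1 first. Fgb was 3199, 1483, 1757 and 1186 TPM, and Fgg 6685, 3035, 3542 and 2494. Over the other 12 livers Fga ran from 1945 to 4198, Fgb from 1278 to 2026 and Fgg from 2836 to 3964, so replicate 1 was above all other livers for each chain.

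Ttr was lowest there, at 2800 TPM against 4179 to 7607 in the other 15, as was Alb. Pzp and Plg were highest there, at 2049 and 1479 TPM. In estimated counts, the 3 fibrinogen chains summed to 1.64 times Alb in that liver and to 0.123 to 0.240 times in the others. Without that library Alb rose with HSD in CTRL by 0.51 ± 0.11 (adjusted p = 0.0201), and the fitted values of Fga, Fgb and Fgg turned from -0.29, -0.28 and -0.17 to 0.16, 0.06 and 0.18, none called. Plg was at -0.27 (adjusted p = 0.178).

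**Figure D4:**
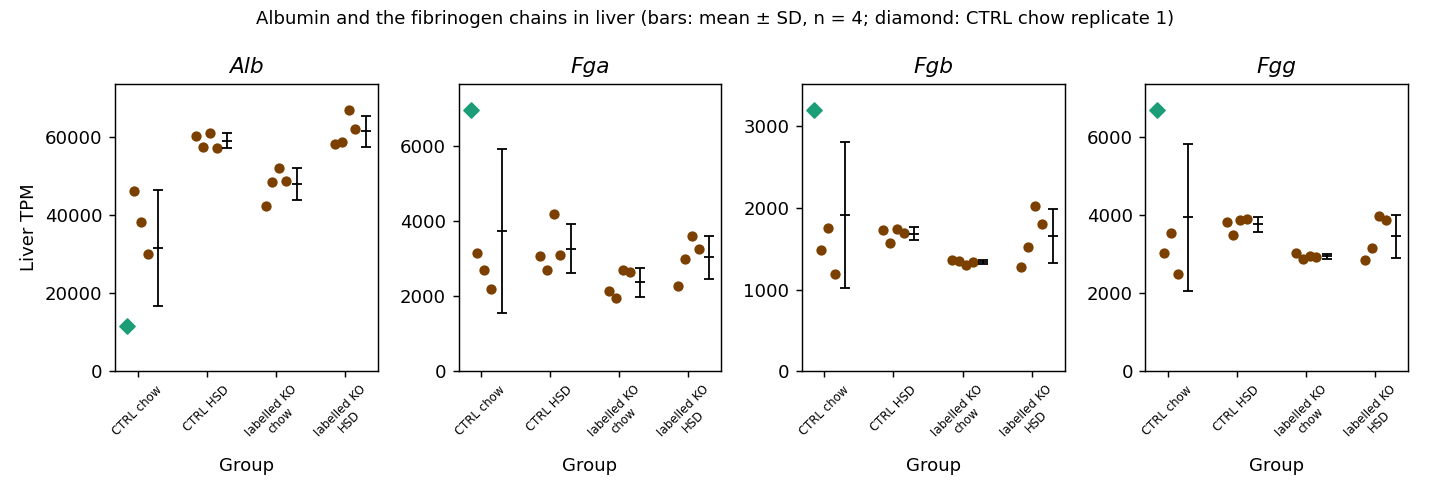
Liver levels (TPM) of Alb, Fga, Fgb and Fgg in the 4 groups; points are libraries, bars the mean ± SD (n = 4), and the diamond is CTRL chow replicate 1. That library has the lowest Alb, 11570 TPM, and the highest level of each fibrinogen chain.

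Over the 16 livers Fgb and Saa1 had r = 0.650 (permutation p = 0.0193, adjusted 0.0386) and rho = 0.185 (permutation p = 0.493). Without CTRL chow replicates 1 and 3 r was -0.13 (permutation p = 0.674), so the relation rests on those libraries. Within groups r was 0.83 in CTRL chow, 0.219 in CTRL HSD, 0.731 in labelled-KO chow and 0.03 in labelled-KO HSD. The 5 genes closest to Fgb over the livers were Nek6 (rho = 0.918), Pros1 (0.865), Sat1 (0.838), Snx10 (0.832) and Apcs (0.818). Pros1 encodes the anticoagulant protein S and Apcs the serum amyloid P component.

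The other liver comparisons called none of the 10 members by edgeR, DESeq2 or limma. For diet in labelled KO 0 had an unadjusted p under 0.05, and Alb had 0.22 ± 0.26 (adjusted p = 0.830); 0.00888% of genes were called. For genotype on chow 3 had an unadjusted p under 0.05, Alb at 0.66 ± 0.26 (adjusted p = 0.335) and Fga at -0.58 ± 0.26 (adjusted p = 0.388) among them, and 0% of genes were called. For genotype on HSD 0 members had an unadjusted p under 0.05, all fitted values lay between -0.17 and 0.09, and 0.0711% of genes were called. For the interaction 0 had an unadjusted p under 0.05 and 0% of genes were called. The members' medians in these comparisons were -0.02, -0.18, 0.01 and 0.16 on the log2 scale.

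Ahsg, Serpinc1 and F2 were the steadiest members of the liver. Their ranges over the 16 livers spanned 4221 to 6483, 1182 to 1643 and 634 to 1070 TPM, and their fitted diet differences in CTRL were -0.20, 0.14 ± 0.09 (adjusted p = 0.398) and -0.28 ± 0.12 (adjusted p = 0.184).

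Other genes of the same pathways were described from lists of the clotting system, plasma proteins, unsecreted hepatocyte genes, liver transcription factors and acute phase genes, in the CTRL liver on HSD against chow. Of 20 other coagulation genes tested 3 fell and none rose, with a median of -0.34 on the log2 scale, beside 4.67% of all genes called and a median of -0.02 over them. Proz, the protein Z cofactor that restrains factor X, had -0.44 ± 0.10 (adjusted p = 0.0172), Serpina10, the inhibitor that works with it, -1.09 (adjusted p = 0.0205), and Serpinf2, the plasmin inhibitor, -0.46 (adjusted p = 0.0483). Without CTRL chow replicate 1 Proz and Serpina10 fell and the median was -0.17.

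Of 26 other plasma protein genes 5 fell and none rose, with a median of -0.40, beside the same values over all genes. C8b, C8a and C9, which form the membrane attack complex of complement, had -1.09, -0.97 and -0.92 (adjusted p = 0.0109, 0.0197 and 0.0185), and Fetub, a fetuin related to Ahsg, had -0.69 (adjusted p = 0.0111). The other gene was Lcat, the plasma cholesterol esterifier. Without replicate 1, 4 fell (C8b, C9, Fetub and Serpina1a) and the median was -0.24.

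Of 24 unsecreted hepatocyte genes 1 fell, the oxysterol hydroxylase Cyp7b1, by 1.89 (adjusted p = 0.0178). Of 13 transcription factors Nr1h4, the bile acid receptor, fell by 0.45 (adjusted p = 0.0389), and none did without replicate 1. Of 15 acute phase genes 3 fell and none rose: Saa4 at -2.20 (adjusted p = 0.0149), Saa3 at -4.65 (adjusted p = 0.0349) and Orm3 at -4.28 (adjusted p = 0.0417). Their median was -2.10, and -0.91 without replicate 1, in which they were high. None of these lists had a gene called in the other 4 liver comparisons.

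The acute phase and fibrinogen genes were also set out by sample number. Each library carries a number from 1 to 64 in its description, and the liver with the highest serum amyloid, CTRL chow replicate 1, is number 9. The serum amyloid genes Saa1 and Saa2 summed to 246929 estimated counts there. In the 6 libraries of other tissues whose number is a multiple of 8 away from it, Saa1 and Saa2 summed to 19 and 24 counts in WAT, 21.8 and 20 in heart, and 21.6 and 16 in muscle. In the other 41 libraries of those tissues, leaving out WAT of labelled-KO chow replicate 3, the sum ran from 0 to 6, with a median of 1. The 2 sets did not overlap. The 6 libraries carry the title numbers 1 and 9, and 9 is also the title number of liver CTRL chow replicate 1. For title number 9, the spacing by 8 and the shared title number cannot be told apart. Liver number 1, labelled-KO chow replicate 1, is also 8 away and had 307 counts, ranking 7 of the 16 livers.

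Among the members the ratio of summed fibrinogen to Alb estimated counts was compared in the same way. It was 0.391 and 0.427 in the heart libraries with those numbers, against 0.137 to 0.239 in the other 14 hearts. In WAT it was 0.111 and 0.181, against 0.0174 to 0.0934 in the others without labelled-KO chow replicate 3, which had 0.240. In muscle it was 0.240 and 0.328, against 0.0917 to 0.243 in the others, so those overlapped. Over all 6 the ratio ran from 0.111 to 0.427, with a median of 0.284, and over the other 41 from 0.0174 to 0.243, with a median of 0.150, and these ranges overlapped. WAT of labelled-KO chow replicate 3 is number 19, and the liver it lay closest to is number 11, which is also 8 away. The labels do not say what the numbers mark, and the cause was not tested. The pattern was noticed in these data, so no test is attached to it.

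**Figure D5:**
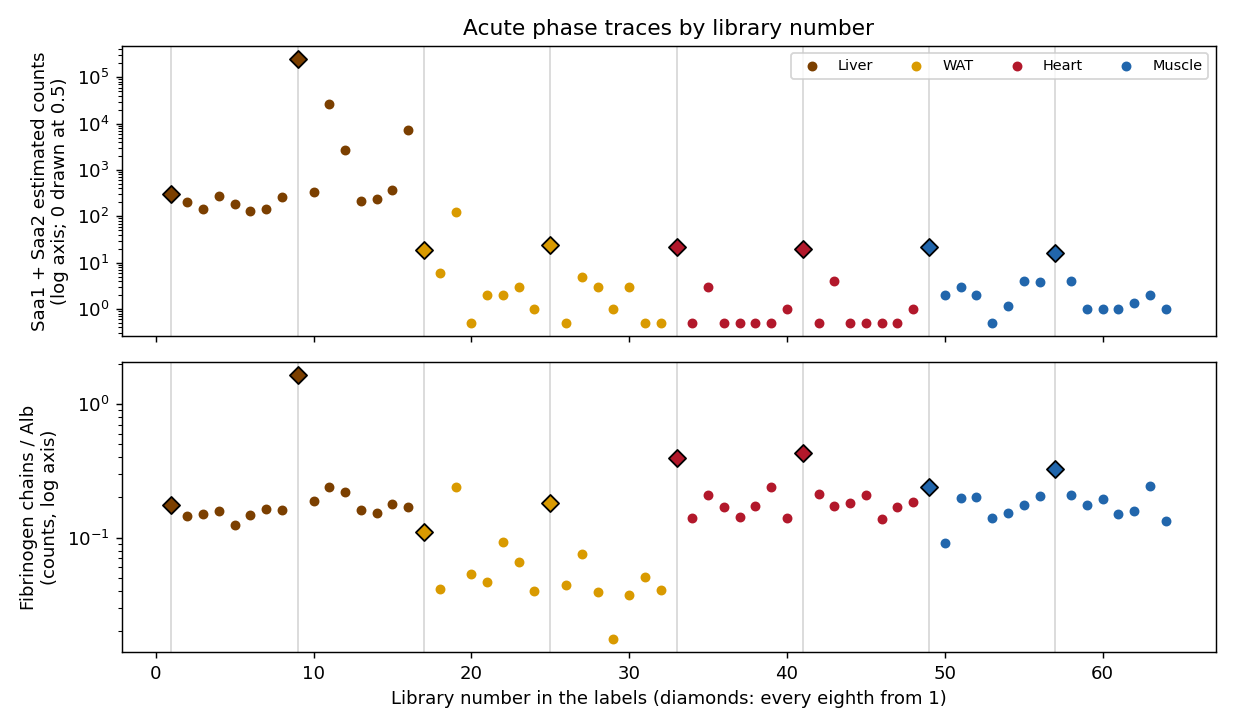
Estimated counts of Saa1 and Saa2 summed, and the ratio of summed fibrinogen to Alb estimated counts, in each library (log axes) by its description number; diamonds mark every eighth number counted from 1. Outside the liver the diamonds lie at 16 to 24 counts in the 6 libraries, above the 0 to 6 of the others except WAT number 19.

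Other genes were set against the members' trace level. Of 4260 genes with at least 10 TPM in liver, 71 in WAT, 87 in heart and 116 in muscle had a median share of liver within 2-fold of the members' median share in that tissue. More genes, 130 in WAT, 208 in heart and 168 in muscle, lay further below it, so the level is not a floor. Among the 71 in WAT, 4 were called for genotype on chow, where 6.68% of all genes were, 6 for diet in labelled KO, where 6.38% were, and none in the other comparisons. The 71, like the sets in heart and muscle, were not limited to genes with enough counts to test. These counts therefore cannot be set against the shares of all genes tested. The calls of the liver-only genes in both comparisons fell to 0 without labelled-KO chow replicate 3, as given above. In heart and muscle none of the 87 or 116 was called in any comparison. In bulk tissue, fewer cells of a type and less RNA per cell cannot be told apart.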

How the data were processed

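Per the submitters' processing notes, reads were quantified with kallisto against GRCm38 (version and strand setting not given in the sources used here). From these the authors deposited a table of estimated counts per gene and a table of TPM per gene over all 64 libraries. The deposited TPM columns sum to 816010 to 926964, so the table is partial and levels are relative to what it holds. The test on rounded estimated counts was that of edgeR 4.0.16 (R 4.3.3; TMM scaling, filterByExpr with a minimum count of 10, robust quasi-likelihood fit of 4 group means over the 16 libraries of a tissue, adjusted p under 0.05). DESeq2 1.42.0 and limma 3.58.1 on log2(TPM + 1) were alternatives, beside other scaling, no filter, only the 8 libraries compared and leaving out single libraries. Shares of liver used TPM, relations used log2(CPM + 0.1) with 100000 permutations, and counts of 0 are limited by a floor of 3 counts. That floor covers counting error only, not the spread between mice. The labels give 4 mice a group, and p-values measure the spread between them.

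Samples were grouped by the labelled genotype, diet and tissue. The members and gene lists were chosen with earlier results of these data known. All 10 members are named in every comparison, other listed genes by smallest p, and genes alike to Alb or Fgb by the 5 highest Spearman rho; a result for 1 listed gene is not reported here. Tested on simulated data, the CTRL diet fit recovered 54% of liver genes (of 11117 tested) changed 2-fold and 78% of those changed 4-fold. Promoters came from RefSeq (GRCm38.p6), which held 8 of the 10 members.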

Additional observations from a re-analysis of the deposited data

Results flagged for a closer look

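Of 160 sets of 4 libraries (10 genes in 16 groups), 22 had a highest or lowest library whose gap to the next exceeded Dixon's critical value as a share of the whole range; chance gives about 1 in 20, or 8 of 160. All 10 genes did so in WAT of labelled-KO chow replicate 3, above its group: Alb 272, Ttr 35.1, Ahsg 47.04, Pzp 8.89, Fga 18.7, Fgb 12.8, Fgg 25.2, Serpinc1 10.01, F2 5.37 and Plg 8.85 TPM. In muscle of labelled-KO HSD replicate 4, Alb (35.7 TPM), Fga (1.96) and Fgg (3.50) were high, and in muscle of CTRL chow replicate 2, Ttr (6.501 TPM), Pzp (1.02) and Fgb (1.25) were. These 16 are the libraries described above. Genes of the same library are not independent, so the 22 cannot be weighed against the 8, which holds for independent sets.

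The other 6 were single genes in single libraries. Pzp was high in muscle of labelled-KO chow replicate 1 (0.355 TPM). Alb was high in heart of labelled-KO HSD replicate 3 (7.86 TPM), and Serpinc1 in heart of labelled-KO chow replicate 3 (0.854 TPM). Fgb was low in heart of labelled-KO chow replicate 2 (0.0469 TPM), Fgg in heart of CTRL HSD replicate 2 (0.236 TPM) and Ahsg in liver of labelled-KO HSD replicate 4 (4473 TPM). The Fgb and Fgg values rest on a few counts each. No gene moved one way in all libraries of one genotype and the other way in all of the other.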

How the results depend on the processing

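Of the 20 comparisons, 14 kept their number of members called within 1.5 times under every alternative run, and 279 of 300 alternatives left it so. In CTRL liver, HSD against chow, the 0 members called became 2 with DESeq2 and 1 with limma, and 0 to 1 when single libraries were left out (1 without CTRL chow replicate 1 or replicate 2). In CTRL WAT the 0 for diet became 1 with only the 8 libraries compared, and 0 to 1 when libraries were left out (1 without labelled-KO chow replicate 3). In labelled-KO WAT the 0 for diet became 1 with DESeq2 and 0 to 2 when libraries were left out; there Pzp, at -2.30, ran from -2.73 to 0.66, the last without labelled-KO chow replicate 3. For genotype on chow in WAT the 4 became 1 with no filter on low counts, 1 with DESeq2, 0 with limma and 0 with only the 8 libraries, and 0 to 6 when single libraries were left out (1 without labelled-KO chow replicate 3, 0 without any CTRL chow replicate). The DESeq2 counts in WAT are out of the fewer members it gave a test for there, as stated above. In heart the 0 for diet became 1 with DESeq2 in each genotype. The cause of these changes was not tested, other than by the library left out.

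The median heart share of liver, 0.0156%, was 0.0206% against the CTRL chow livers only, 0.0228% without Alb and 0.0349% with TPM rescaled without mitochondrial genes. In muscle rho between Alb and the unsecreted hepatocyte genes fell from 0.676 to 0.525 (permutation, adjusted p = 0.160) without the 2 farthest libraries. In heart that rho turned from 0.432 to -0.11 with the list's median share in place of its sum, and in liver rho between Fgb and Saa1 turned from 0.185 to -0.16 without the 2 farthest livers. Leaving libraries that stood apart out of comparisons they are not in, out of the shares, in a pair in muscle and out of the list counts, and the list's median share, were chosen after seeing the data. No paired analysis was possible because within a tissue the groups compared share no title numbers, and the comparison between tissues has no test. Outside the liver most members had a median under 20 counts a library, and 5 of 10 in WAT and in heart and 1 of 10 in muscle were too low to test.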
